A study of Drosophila mojavensis with 172 samples.

Results

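Third-instar larvae and 6-day-old adult females of Drosophila mojavensis, a cactus-breeding fruit fly, were compared as the feeding stages that lie on either side of metamorphosis. Arrays were chosen by the stage in their title, which gave 29 of the 172 arrays of the series, 15 of third-instar larvae (L3) and 14 of 6-day females (6D). Each array gave 1 log2 signal for each of 14528 transcripts. Flies were wild type and came from Las Bocas in Sonora or Punta Prieta in Baja California, and each population was reared on laboratory medium made with agria or with organ pipe cactus. The 4 combinations of population and diet are called series here. All flies were kept in bottles at a moderate larval density, under cycling light and temperature. In Las Bocas there were 5 larval and 3 female arrays on agria, and 4 larval and 2 female arrays on organ pipe. Punta Prieta had 5 larval and 5 female arrays on agria, with 1 larval and 4 female arrays on organ pipe. Adults were females, whereas the labels used here do not give the sex of the larvae, so sex and stage cannot be told apart in this comparison. The labels do not state whether the replicates of a group were separate cultures, so the p-values rest on variation among arrays that may be technical.

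In flies that undergo complete metamorphosis, the third instar is the last larval feeding stage. Its gut, fat body and salivary glands are large polyploid tissues, most of which break down in the pupa. The adult is built largely from imaginal discs and histoblasts that stay small in the larva. A mature, fed female carries ovaries full of developing eggs, which receive yolk from fat body and follicle cells and maternal RNA from the nurse cells. In this setting the number of cells of a type and the amount of RNA per cell cannot be told apart, because the labels name a stage and no single tissue as the source of the RNA. No source used here pairs the array's transcript IDs with genes or products (0 IDs matched), so transcripts are named by ID and no tissue marker could be looked up.

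Larvae and females were first placed on a common scale. The position of an array is its least-squares place between the mean of the larvae (0) and the mean of the females (1), with the array's own series left out of both means and only transcripts that differ by at least 1 between them used (6774 to 7461 transcripts). Larvae had a mean position of 0.043 ± 0.174 (SD, n = 15) and ranged from -0.161 to 0.423, and females had a mean of 0.999 ± 0.115 (SD, n = 14) and ranged from 0.732 to 1.148. No larval array overlapped a female array. Larvae of Punta Prieta on agria lay closest to the females, at 0.224 ± 0.152 (SD, n = 5), and replicates 4 and 5 of that group were at 0.423 and 0.347. These 2 arrays correlated better with the mean of the second instar (r = 0.911 and 0.933 across transcripts) than with that of their own stage (0.801 and 0.837). Another larval array, replicate 2 of Las Bocas on organ pipe, correlated better with the first instar (0.881) than with its own stage (0.808). These 3 arrays were the ones of the 29 that came closer to another stage by more than 0.05 in r, and they are meant where this is said below. The counts for stage and for diet are also given without them. By smaller gaps, the other larvae of Punta Prieta on agria also correlated best with the second instar (replicate 1 at 0.978 against 0.931). The other larvae of Las Bocas on organ pipe, and replicates 1 and 5 on agria, did so with the first or second instar. Several female arrays correlated best with another adult age. Array medians lay between 11.14 and 11.48. The spread of signals within an array moved with the stage, with an SD over transcripts of 1.31 to 1.60 in larvae and 1.56 to 1.77 in females.

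**Figure D1:**
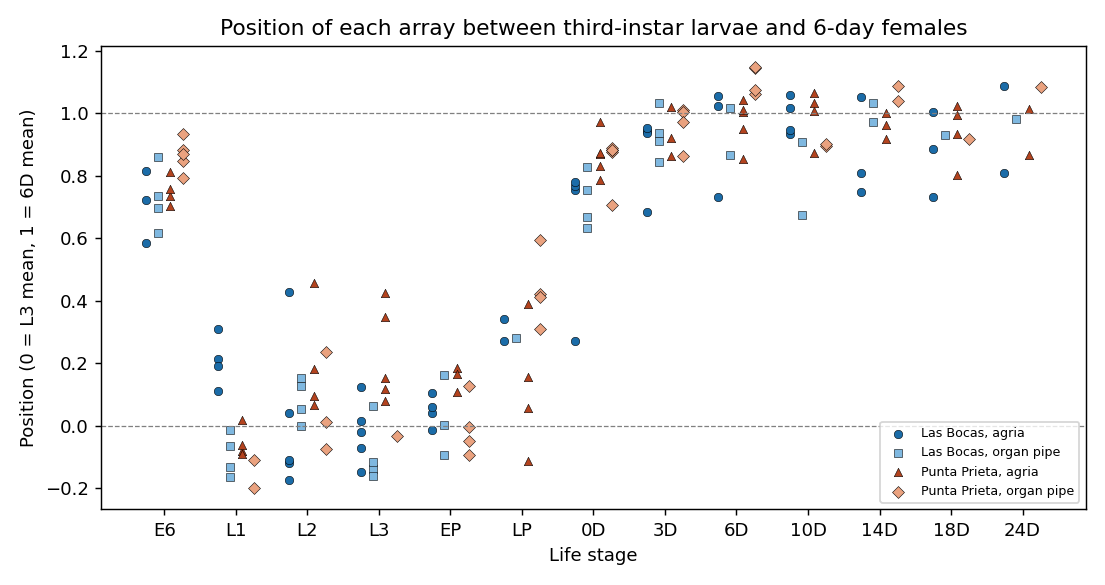
Each point is 1 array, placed by life stage (horizontal) and by its position between the third-instar mean (0) and the 6-day female mean (1) (vertical, no unit), with colour and shape for the series. On average, larvae and early pupae lie near 0 and females from 3 days on near 1. The means of 6-hour eggs and newly eclosed females are about 0.77 and 0.78. Their arrays run from 0.586 to 0.934 and from 0.271 to 0.972.

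Many of the measured transcripts differed between the feeding larva and the feeding female. With the series as a block, 6711 of 14528 transcripts (46.2%) passed an adjusted p under 0.05 and a log2 difference of at least 1, which is 2-fold (limma with Benjamini-Hochberg adjustment). Of these, 3428 (23.6% of all) were higher in females and 3283 (22.6%) were higher in larvae. The median difference, female minus larva, was 1.46 in the first list, -1.67 in the second and 0.14 over all transcripts. With the fold threshold removed, 12174 transcripts passed. Without the 3 arrays that came closer to another stage, 7040 transcripts were called, 3623 higher in females and 3417 higher in larvae. With the SD of each array added as a covariate, 4036 were called, 2361 higher in females and 1675 higher in larvae.

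Large differences lay more often on the larval side. At a log2 difference of at least 2, 605 transcripts were higher in females and 1056 in larvae. At 3 or more these numbers were 83 and 175, at 4 or more 22 and 55, and at 5 or more 4 and 13. At 2 or more the larval excess was also present after centring each array on its median (436 and 1290) and after a repeated quantile normalization (604 and 1129). The balance at the lower threshold of 1 was not stable. Centring turned it to 2878 higher in females and 3671 higher in larvae, whereas quantile normalization gave 3071 and 2945. Without the dimmest 25% of transcripts it leaned to females, with 3136 and 2319. The larval excess at 2 or more was not counted under this filter or with the SD of each array as a covariate.

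Differences of this size had nearly the same direction wherever they were measured. Of the 6711 called transcripts, 6662 (99.3%) pointed the same way in each of the 4 series, against 62.8% of those not called and 79.6% of all transcripts. For 3871 of the called transcripts (57.7%) no larval array overlapped a female array, and over all transcripts 29.8% were without overlap. Both shares describe a list that was chosen on the same arrays. Larvae varied more from array to array than females did. The median SD within a group was 0.377 in larvae and 0.270 in females, and it was larger in larvae for 71.3% of transcripts. The larval value includes the larval arrays that came closer to another stage, and no value without them is given.

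FBtr0166679 had the largest difference among the transcripts that were higher in females. Its log2 signal in larvae ranged from 9.60 to 10.84 with a median of 10.28, and in females from 15.17 to 15.52 with a median of 15.46. Every female array was above every larval array by more than 4 log2 units. The difference was 5.21 (SE 0.12, adjusted p = 1.93e-24, limma), or 37.0-fold. It was 5.08 in Las Bocas on agria, 4.84 in Las Bocas on organ pipe, 5.72 in Punta Prieta on agria and 4.53 in Punta Prieta on organ pipe. In the other stages it stayed between 9.73 and 10.29 on average in eggs, larvae and pupae, and reached 12.41 ± 1.48 (SD, n = 18) in newly eclosed females and 15.42 ± 0.13 (SD, n = 15) at 3 days.

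FBtr0163649 came next. Its signal ranged from 8.74 to 9.38 in larvae (median 9.02) and from 10.94 to 15.58 in females (median 14.26). The groups did not overlap, but females were spread over more than 4 log2 units, with replicate 1 of Las Bocas on organ pipe the lowest and replicate 4 of Punta Prieta on agria next at 12.90. The difference was 5.17 (SE 0.31, adjusted p = 4.27e-15, limma). This transcript came up later than FBtr0166679. At 0 days its mean was 9.08 ± 0.30 (SD, n = 18), at 3 days its arrays ran from 8.60 to 15.12 with a median of 9.25, and at 6 days its mean was 14.15 ± 1.22 (SD, n = 14).

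On the larval side, FBtr0163421 ranged from 13.17 to 15.48 in larvae with a median of 15.20, and from 8.87 to 9.91 in females with a median of 9.59. The lowest larval array, replicate 2 of Las Bocas on organ pipe, was one of the 3 that came closer to another stage. The difference was -5.64 (SE 0.17, adjusted p = 3.07e-22, limma), which is 49.9-fold lower in females. No background or saturation measure was used here, so folds between signals near the ends of the deposited range may be compressed. Its mean was 13.10 ± 0.84 (SD, n = 14) in the first instar and 14.96 ± 0.24 (SD, n = 16) in the second, and it was at 11.71 ± 0.63 (SD, n = 14) in early pupae.

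FBtr0165068 ranged from 10.07 to 15.40 in larvae (median 15.15) and from 8.64 to 9.51 in females (median 9.14). The low end in larvae was a single array, again replicate 2 of Las Bocas on organ pipe, and the other 14 larval arrays were at 13.96 or above. The difference was -5.59 (SE 0.32, adjusted p = 2.09e-15, limma). Its drop lay at the start of metamorphosis, since early pupae were at 9.69 ± 0.38 (SD, n = 14) against 14.67 ± 1.33 (SD, n = 15) in third-instar larvae. Eggs held it at 9.03 ± 0.40 (SD, n = 16), near the level of 6-day females.

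**Figure D2:**
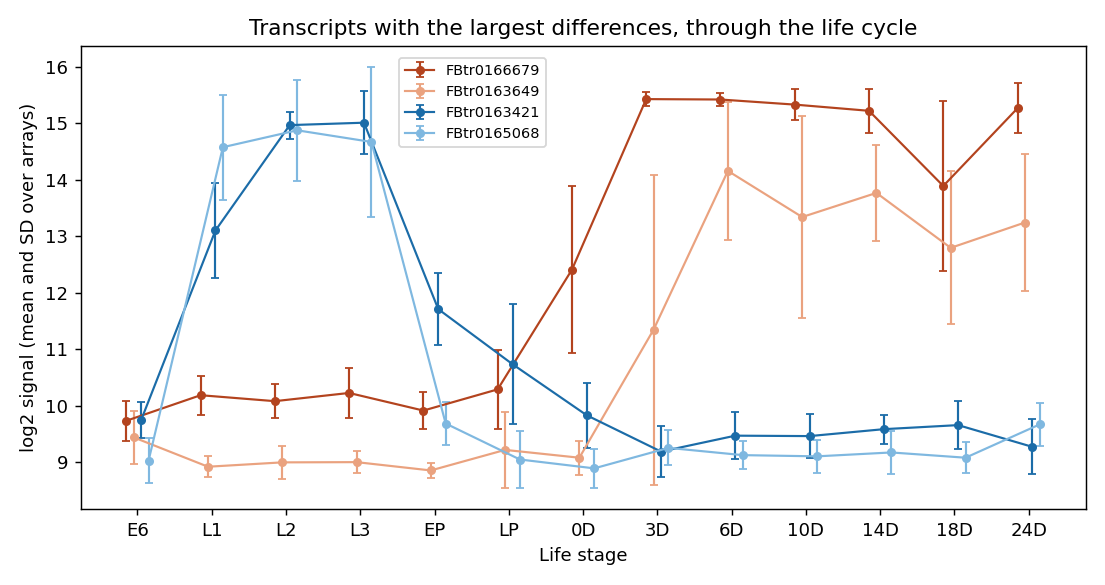
Points are the mean log2 signal (vertical) of 4 transcripts at each life stage (horizontal), over all arrays of the stage, and bars are 1 SD. FBtr0163421 and FBtr0165068 are near 15 in second- and third-instar larvae and below 10 from eclosion on, FBtr0166679 reaches 15.42 at 3 days, and FBtr0163649 spans its widest range at 3 days.

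Taken one at a time, each series showed the difference. The 8 groups of population, diet and stage were fitted together and females were compared with larvae within each series, with the same thresholds. In Las Bocas 6804 transcripts (46.8%) were called on agria and 7868 (54.2%) on organ pipe, while the counts for Punta Prieta were 5893 (40.6%) with agria and 7407 (51%) with organ pipe. The last value rests on 1 larval array, whose error is taken from the other groups. Across transcripts, the differences of any 2 series correlated at r between 0.78 (Las Bocas on organ pipe with Punta Prieta on agria) and 0.95. Punta Prieta on agria, whose larvae lay closest to the females in position, had the smallest differences, with a median of 1.40 in the list higher in females and -1.36 in the list higher in larvae. In Punta Prieta on organ pipe these medians were 1.65 and -2.09.

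The same contrast of larva and mature female was then measured in arrays that had no part in choosing the lists, second-instar larvae (L2, n = 16) and 10-day females (10D, n = 12). Between these stages 6231 transcripts (42.9%) were called, 3238 higher in females and 2993 higher in larvae. Of the 3428 transcripts higher in 6-day females, 2916 (85.1%) were called in the same direction, which is 90.1% of the 10-day list. Of the 3283 higher in third-instar larvae, 2827 (86.1%) were called again, which is 94.5% of the second-instar list. No transcript was called in opposite directions. Median differences of the 2 lists were 1.40 and -1.47, against 0.084 over all transcripts. FBtr0166679 differed by 5.23 (SE 0.11, adjusted p = 6.12e-25, limma) and FBtr0166272 by 5.09 (SE 0.12, adjusted p = 1.76e-23, limma). FBtr0166272 was also high in 6-day females, at 13.71 ± 0.28 (SD, n = 14) against 8.66 ± 0.17 (SD, n = 15) in third-instar larvae. On the larval side FBtr0165068 differed by -5.75 and FBtr0163421 by -5.48.

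Newly eclosed females (0D, n = 18), which have just left the pupal case, shared fewer of these differences. Against second-instar larvae 4984 transcripts (34.3%) were called, 2431 higher in females and 2553 higher in larvae. This comparison and the one at 10 days share the second-instar arrays. Of the transcripts higher in 6-day females 1617 (47.2%) were called in the same direction at 0 days and 32 in the opposite one. Of those higher in third-instar larvae 2250 (68.5%) were called in the same direction and 38 in the opposite one. On the female side, the 2 transcripts named at 0 days were not those named at 6 days. FBtr0167250 and FBtr0163377 were 5.07 and 5.03 higher than in second-instar larvae at 0 days, with means of 15.52 and 15.48 (n = 18). At 6 days they were at 13.04 and 12.98 (n = 14), and at 18 days at 10.20 and 10.23 (n = 9). FBtr0163649 was at its larval level at 0 days, with a difference of 0.08 (95% confidence interval -0.13 to 0.28, adjusted p = 0.478, limma). On the larval side the 0-day females were already low. FBtr0165068 differed by -5.99 and FBtr0162148 by -5.35, the latter being at 14.85 ± 0.79 (SD, n = 15) in third-instar larvae and 9.76 ± 0.44 (SD, n = 14) in 6-day females.

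To place each difference in the life cycle, a transcript was called female-like at a stage when the stage mean, with series weighted equally, lay on the female side of the midpoint between its larval and 6-day female means. The lists were chosen on 2 of these stages, so the shares are descriptions and carry no test. Early pupae (EP) were larva-like for most transcripts of both lists. Only 11.6% of the transcripts higher in females and 6.88% of those higher in larvae were female-like there, against 18.5% of all transcripts. Late pupae (LP) had 25.1% and 34.9%, against 33.2% of all, and the order of the lists at this stage turned after centring on array medians (30.1% and 28.2%). At eclosion the shares were 69.9% and 91.1%, against 71.6% of all, and at 3 days 95.5% and 98.1%, against 88.0% of all. By eclosion a larger share of the larval list had thus crossed to the female side. Of the 3283 transcripts higher in larvae, 1874 (57.1%) crossed once, between late pupa and eclosion, and 175 (5.33%) between eclosion and 3 days. Of the 3428 higher in females, 1437 (41.9%) crossed between late pupa and eclosion and 825 (24.1%) between eclosion and 3 days. Over all transcripts 37.3% crossed at the first of these steps and 14.5% at the second. From 3 to 6 days 137 transcripts of the female list (4.00%) and 39 of the larval list (1.19%) crossed, against 6.53% of all.

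Eggs of 6 hours (E6) lay nearer to the female than to the larva. Their mean position on the scale from larva to female was 0.773 ± 0.097 (SD, n = 16), close to that of newly eclosed females at 0.779 ± 0.154 (SD, n = 18). First-instar larvae were at -0.005 ± 0.154 (SD, n = 14). Of the transcripts higher in females 79.7% were female-like in eggs, and of those higher in larvae 88.1%, against 72.0% of all transcripts. After centring on array medians the shares were 81.5% and 72.5%. The median level of the female list was 12.54 in eggs and 12.50 in 6-day females, and between 10.84 and 10.94 in the 3 larval instars.

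The transcripts higher in females fell into classes by their level in eggs and at eclosion. In 1826 of the 3428 (53.3%) both stages were female-like. Another 907 (26.5%) were female-like in eggs and larva-like at eclosion, 569 (16.6%) were larva-like in eggs and female-like at eclosion, and 126 were larva-like in both. Over all 14528 transcripts these patterns held 7156 (49.3%), 3308 (22.8%), 3247 (22.3%) and 817 (5.62%), so the first 2 shares were near those of all transcripts. In the class of 907, median levels were 12.85 in eggs, 10.69 in third-instar larvae, 10.45 in late pupae, 10.87 at eclosion, 11.71 at 3 days, 12.23 at 6 days and 12.48 at 24 days. A level on the larval side at eclosion and a rise by 6 days follow from the definition of this class. Its levels at 3 and 24 days were not used to define it. In the class of 569 the medians were 10.05 in eggs, 10.90 in third-instar larvae, 11.65 in late pupae, 13.17 at eclosion, 13.22 at 3 days, 12.92 at 6 days and 12.37 at 10 days. This class had the highest median at 3 days and was lower in older females. The class of 126 went from 10.78 at eclosion to 12.85 at 3 days.

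Among the transcripts higher in larvae, 2624 of 3283 (79.9%) were female-like in both eggs and newly eclosed females, against 49.3% of all transcripts. Their median level was 10.18 in eggs, 11.71 in third-instar larvae, 11.75 in early pupae, 11.15 in late pupae, 10.01 at eclosion and 9.73 at 6 days. A smaller class of 268 (8.16%, against 22.8% of all) was female-like in eggs and larva-like at eclosion, which is how it was defined. Its median was 10.47 in eggs, between 12.37 and 12.53 at every stage from the first instar to eclosion, 11.35 at 3 days and 10.74 at 6 days. The remaining 367 and 24 transcripts were larva-like in eggs, the 367 having crossed to the female side at eclosion and the 24 not. They made up 11.2% and 0.73% of the list, against 22.3% and 5.62% of all transcripts. The share of the larval list that was female-like in eggs was lower after centring on array medians. The classes were not formed again on centred values.

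**Figure D3:**
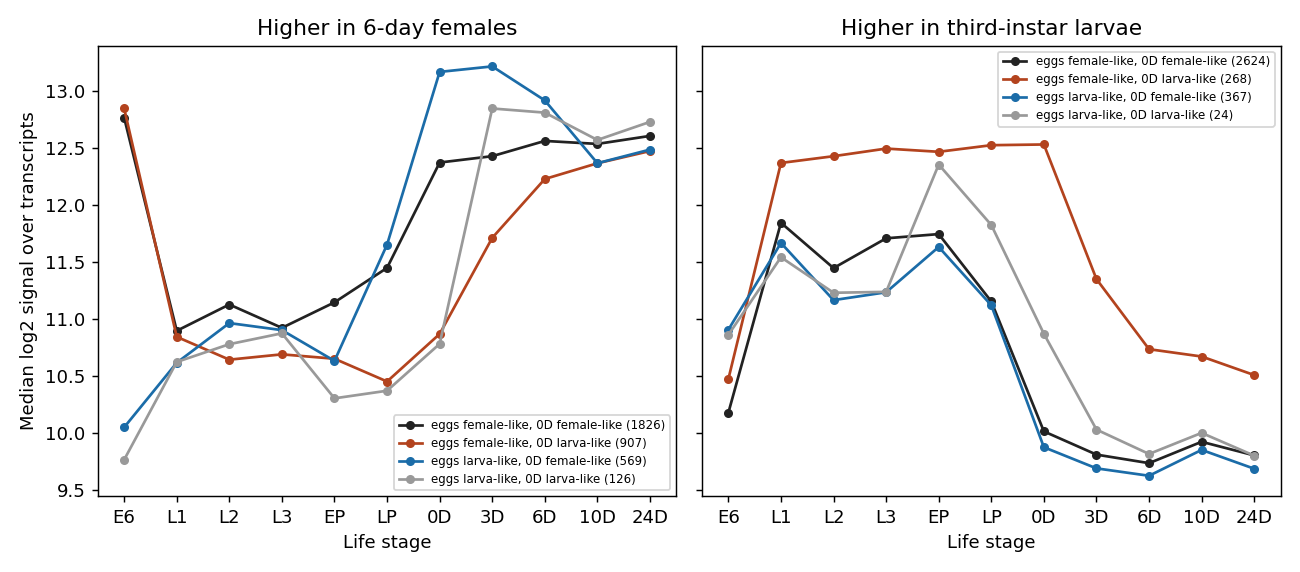
Lines join the median log2 signal (vertical) over the transcripts of a class at 11 life stages (horizontal), with the number of transcripts in the legend. The class definitions use the levels in eggs and at eclosion, so the side on which a class lies there was fixed in advance. Among transcripts higher in females (first panel), the class of 907 is at the larval level at eclosion and reaches 12.23 at 6 days. The class of 569 peaks at 3 days. Among those higher in larvae (second panel), the class of 268 leaves the larval level after eclosion.

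The classes differed in how they varied between series. In the class of 907, which is high in eggs and low at eclosion, the median difference between female and larva was 1.45 in Las Bocas on agria, 1.00 in Las Bocas on organ pipe, 1.72 in Punta Prieta on agria and 1.36 in Punta Prieta on organ pipe. The median female level ran in the same order, from 11.87 in Las Bocas on organ pipe to 12.49 in Punta Prieta on agria. In the class of 569 the order was the opposite, with 1.61, 2.30, 1.06 and 1.95. Here Las Bocas on organ pipe had the highest female median (13.25) and Punta Prieta on agria the lowest (12.60), and Punta Prieta on agria also had the highest larval median (11.07). No test was made of these differences, which rest on 2 to 5 female arrays and 1 to 5 larval arrays per series. Both female arrays of Las Bocas on organ pipe correlated best with 3-day females. Those of Punta Prieta on agria, replicate 4 apart, correlated best with females of 14 to 24 days, and its larvae with the second instar. Whether the order of the series follows such differences in stage was not tested.

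**Figure D4:**
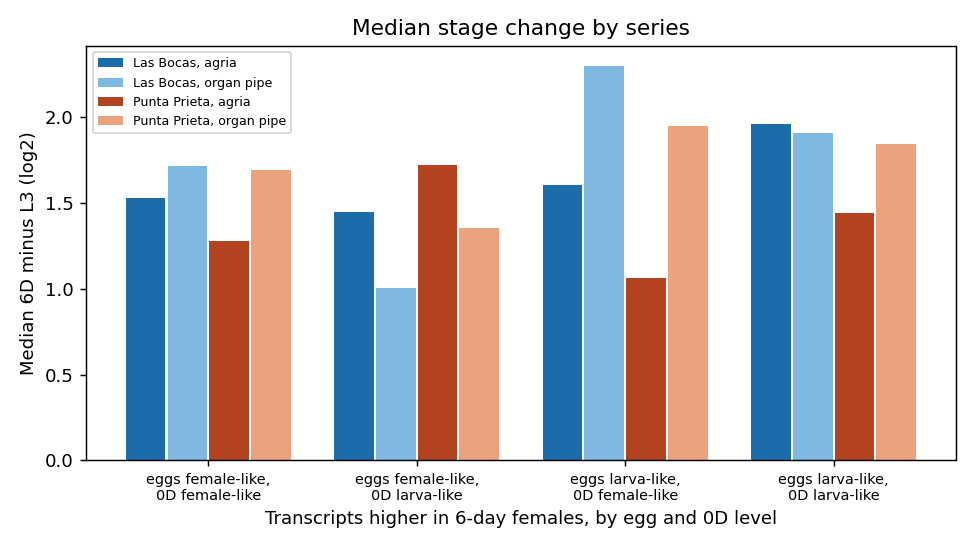
Bars, drawn from 0, give the median log2 difference between 6-day females and third-instar larvae (vertical) in each series, for the classes of transcripts higher in females (horizontal). In the second class Las Bocas on organ pipe is lowest (1.00) and Punta Prieta on agria highest (1.72), and in the third class the order is the opposite (2.30 and 1.06).

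Some transcripts were bounded close to no difference. For 1719 (11.8%) the 95% confidence interval of the difference stayed within 0.5 of 0 on either side, whereas the other transcripts that were not called had wider or shifted intervals and are not shown to be alike. Many of the 1719 varied little at any stage. The range of their stage means over the life cycle was under 1 for 603 (35.1%), against 9.17% of all transcripts, and its median was 1.25 against 1.97. These transcripts were chosen for a small difference between 2 of the stages in that range, which itself favours a small range. Of the 1719, 29 (1.69%) were higher by at least 1 in both larvae and females than in early and in late pupae, and 23 (1.34%) were lower, shares near the 1.66% and 1.65% of all transcripts. When newly eclosed females were added to the stages compared, 43 of all transcripts were higher and 17 lower by at least 1 in both feeding stages than in early pupae, late pupae and newly eclosed females alike.

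Whether the change from larva to female differs between cactus diets was tested as the change on organ pipe minus that on agria, averaged over the populations. The test called 822 transcripts (5.66%) at an adjusted p under 0.05 with limma, 495 with a more positive change on organ pipe and 327 with a more negative one. This balance turned with array weights (2423 and 3048) and without larval replicate 1 of Las Bocas on organ pipe (1657 and 1926). All 822 had the same sign in both populations, but they were chosen on the average of these same estimates, which favours a shared sign. The population fits that make up the average called few transcripts. In Las Bocas alone 0 were called by limma, with 1549 at an unadjusted p under 0.05, and in Punta Prieta alone 6 were called. The estimate in Punta Prieta includes the single larval array on organ pipe. The count was also sensitive to which arrays entered. It was 13 without the 3 arrays that came closer to another stage and 76 without the 2 of them from Punta Prieta on agria. Leaving out single arrays moved it by more than 1.5 times for 25 of the 28 that could be left out, from 8 without female replicate 2 of Las Bocas on organ pipe to 3583 without larval replicate 1 of that series. The exceptions were larval replicate 3 of Las Bocas on agria (928 without it), larval replicate 3 of Punta Prieta on agria (876) and female replicate 1 of Punta Prieta on organ pipe (662). With the SD of each array as a covariate it was 0, and with a replicate block it was 0. Of the 822 transcripts, 408 (49.6%) were also called in the comparison of female and larva, near the 46.2% of all transcripts. The difference between diets was larger in larvae than in females for 525 of the 822 (63.9%), against 56.6% of all transcripts.

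The 4 transcripts with the largest diet differences varied mainly in larvae. From the second to the third instar, means went from 12.95 to 11.54 for FBtr0172226 and from 11.02 to 9.93 for FBtr0162989. For FBtr0175522 they went from 10.59 to 12.45, and for FBtr0162264 from 10.81 to 11.83, with 15.18 in early pupae. Larvae of Punta Prieta on agria correlated best with the second instar, and a part of larval age in the diet differences was not tested. FBtr0172226 was between 11.39 and 13.04 in the 5 larval arrays of Punta Prieta on agria and at 9.57 in the larval array on organ pipe. In Las Bocas its larvae ranged from 10.46 to 13.52 on agria and from 9.18 to 11.54 on organ pipe, with 3 of the 4 organ pipe arrays below 9.5. Females lay between 8.20 and 9.41 in all series. The change from larva to female was thus more negative on agria, with a diet difference of 2.88 (SE 0.61, adjusted p = 0.0176, limma). Its value was 2.27 in Las Bocas and 3.48 in Punta Prieta, and neither passed alone.

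FBtr0175522 was split within larvae. On agria the 5 larval arrays of Las Bocas fell into 2 at 10.67 and 10.72 and 3 between 14.17 and 15.05, while the 5 of Punta Prieta ran from 9.67 to 10.80. On organ pipe the larvae of Las Bocas ranged from 11.42 to 15.11 and the array of Punta Prieta was at 15.26. Females were between 8.59 and 9.65. The diet difference was -3.14 (SE 0.90, adjusted p = 0.0438, limma), made up of -0.79 in Las Bocas and -5.50 in Punta Prieta. FBtr0162264 also had higher larval means on organ pipe, with of 11.82 ± 1.27 (SD, n = 5) on agria and 13.16 ± 1.79 (SD, n = 4) on organ pipe in Las Bocas, 10.17 ± 0.36 (SD, n = 5) on agria in Punta Prieta and 14.95 in the organ pipe array. Its diet difference was -3.09 (SE 0.71, adjusted p = 0.0221, limma).

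FBtr0162989 was the reverse of these, higher in females and low in larvae on organ pipe. Larvae on organ pipe ranged from 8.16 to 9.47 in Las Bocas and were at 8.61 in Punta Prieta, and larvae on agria ranged from 8.30 to 12.22 and from 9.72 to 12.17. Females on organ pipe were between 12.31 and 13.03, and females on agria between 10.73 and 12.84. Groups overlapped on agria and were apart on organ pipe. The diet difference was 2.95 (SE 0.69, adjusted p = 0.0236, limma), with 2.61 in Las Bocas and 3.28 in Punta Prieta.

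**Figure D5:**
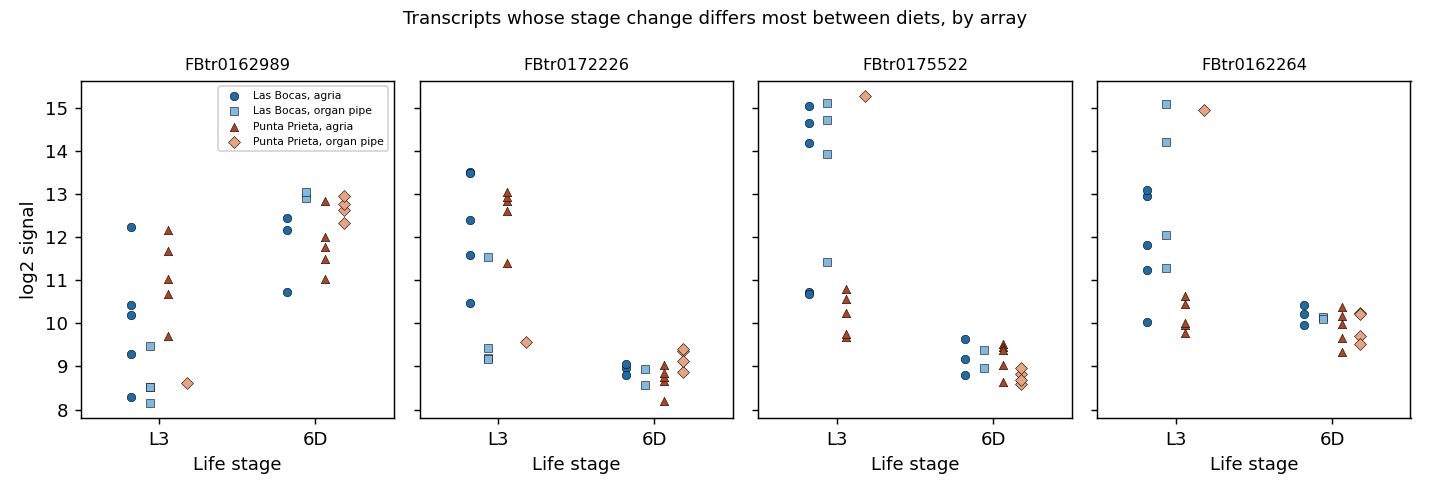
Each point is 1 array, with its log2 signal (vertical) for 4 transcripts (panels) at both stages (horizontal), with colour and shape for the series. Larvae spread more widely than females for FBtr0172226, FBtr0175522 and FBtr0162264, and the Punta Prieta organ pipe series has 1 larval point in each panel.

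A difference between populations in the change from larva to female was tested in the same way, as Punta Prieta minus Las Bocas averaged over diets. With limma 0 transcripts (0%) passed, and 1466 had an unadjusted p under 0.05. On agria alone, where both populations had 5 larval arrays, 30 transcripts (0.206%) passed, 2 with a more positive change in Punta Prieta and 28 with a more negative one. FBtr0166605 was between 9.11 and 10.59 in the larvae of Las Bocas and between 11.08 and 13.15 in those of Punta Prieta, while females were at 11.85 ± 0.33 (SD, n = 3) and 11.55 ± 0.36 (SD, n = 5). On agria it was thus higher in females in Las Bocas and not in Punta Prieta, with a difference between the changes of -2.94 (SE 0.60, adjusted p = 0.0339, limma). FBtr0166447 differed in the same direction, with larvae at 9.57 ± 0.19 and 12.83 ± 1.03 (SD, n = 5 each), and a difference of -2.81 (SE 0.57, adjusted p = 0.0339, limma). In Punta Prieta on organ pipe the female mean was above the 1 larval array for both transcripts. FBtr0166605 was at 11.78 against 10.60 there, and FBtr0166447 at 13.23 against 10.23. In both, the highest larval values of Punta Prieta were those of replicates 4 and 5 on agria, which came closer to the second instar. The other larval arrays of that group also correlated best with the second instar, by smaller gaps. The count of 30 was not made again without replicates 4 and 5, and a part of larval age in it was not tested. FBtr0169507 went the other way, with larvae between 11.56 and 12.41 in Las Bocas and between 10.44 and 11.23 in Punta Prieta and a difference of 1.42 (SE 0.28, adjusted p = 0.0339, limma). For FBtr0173223 the difference was 1.12 (SE 0.24, adjusted p = 0.0417, limma).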

How the data were processed

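Total RNA was hybridized to 1-colour NimbleGen arrays. The deposited table holds log2 values for every array, and the submitters' processing notes name RMA. Its version, and the arrays that were normalized together, are not given in the sources at hand. Deposited log2 values ran from 7.25 to 15.93. No scanner files or background measurements were used here, and depth does not apply: the number of arrays limits the precision. No arrays held identical values (0 pairs). For 1 larval array of Punta Prieta on agria, replicate 2 by its title, the description gives another number; the title was used.

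Under R 4.3.3, limma 3.58.1 fitted the models (lmFit, then eBayes, with Benjamini-Hochberg adjustment over all 14528 transcripts) with series as a block, or with a mean for each of 8 groups for series, diet and population. Stage calls needed an adjusted p under 0.05 and an absolute log2 difference of at least 1, and diet and population calls the adjusted p only. The steps were tested on simulated data. The members and lists were chosen with earlier results of these data known. Because no table pairs the IDs with genes (0 matched), the planned product-name lists were not run, and each comparison names by ID its 2 called transcripts with the largest positive and its 2 with the largest negative difference, with the same sign in all 4 series for stage changes. Alternatives changed the scaling, the thresholds, the filter on dim transcripts (dimmest 25%), the weights, the block and the arrays. Leaving out arrays that came closer to another stage was planned for the stage difference and added after seeing the data for diet, population and bounded transcripts.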

Additional observations from a re-analysis of the deposited data

Results flagged for a closer look

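Array position and the transcripts named for the stage and diet differences were tested in each group of 4 or 5 arrays. Of these 45 tests, 4 found an array far from the rest, and chance gives about 1 in 20 such tests. FBtr0165068 was at 14.53 in larval replicate 5 of Las Bocas on agria, where the others were at 15.16 to 15.28, and at 9.51 in female replicate 4 of Punta Prieta on agria, where the others were at 9.12 to 9.22. FBtr0172226 was at 11.54 in larval replicate 1 of Las Bocas on organ pipe, with the others at 9.18 to 9.43, and at 11.39 in larval replicate 2 of Punta Prieta on agria, with the others at 12.61 to 13.04.

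The change from larva to female differed between diets by an interaction test in limma for 822 transcripts, with the largest differences 2.95 for FBtr0162989, 2.88 for FBtr0172226, -3.14 for FBtr0175522 and -3.09 for FBtr0162264. It differed between populations on agria for 30 transcripts. Both counts include larval replicates 4 and 5 of Punta Prieta on agria, which came closer to the second instar, and the first rests on 1 larval array of Punta Prieta on organ pipe. The other larval arrays of Punta Prieta on agria also correlated best with the second instar, by smaller gaps.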

How the results depend on the processing

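The count of 6711 transcripts that differ between larva and female was 6437 to 6944 with single arrays or replicate numbers left out. It was 10499 at a log2 difference of at least 0.5, 1661 at 2 and 12174 with no fold threshold, and 4036 with array spread as a covariate. The 10-day comparison gave 6048 to 6577 calls and the 0-day comparison 4722 to 5296 with arrays left out. Centring on array medians gave 2828 higher and 3365 lower at 10 days, and 2225 and 2719 at 0 days. The 4 named stage differences passed under all 47 settings each.

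Of 10 same-numbered pairs of larval and female arrays, 5 had deviations that correlated over 0.1 (range -0.267 to 0.308), 4 of them in Punta Prieta on agria (0.256 to 0.308). Since not every pair did so, numbers were not taken to pair samples. With a replicate block 6444 transcripts were called for the stage difference (3293 and 3151), 6196 at 10 days, 4839 at 0 days and 0 for diet.

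The diet count of 822 became 5471 with array weights, 1677 with all 172 arrays in the fit, 0 with array spread as a covariate, 0 in Las Bocas only, 13 without the arrays nearer another stage and 76 without the 2 from Punta Prieta on agria. It ranged from 0 to 3583 with arrays or numbers left out. FBtr0175522 no longer passed in 26 of 42 settings, and FBtr0162989, FBtr0172226 and FBtr0162264 in 8 of 42, 7 of 41 and 7 of 42. The population count of 0 became 2038 with array weights, 27 with all 172 arrays, 14 with array spread as a covariate and 30 on agria only, and ranged from 0 to 365 with arrays left out, with 365 without larval replicate 1 of Las Bocas on organ pipe, 7 without larval replicate 1 of Las Bocas on agria, 1 without each of 3 arrays of Punta Prieta on agria (larval replicate 3 and female replicates 2 and 5) and 0 without any other single array. Without the only larval array of Punta Prieta on organ pipe, or without replicate number 1, neither difference could be fitted. The causes of these shifts were not tested.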
